A study of Homo sapiens with 48 samples.

Results

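The 2′-5′-oligoadenylate synthetase (OAS) family was followed through its 4 human genes, OAS1, OAS2, OAS3 and OASL, in a series on doxorubicin-induced senescence and the mitofusins. The members were taken by name: they are the rows of the count table whose Ensembl identifier maps to these symbols, 4 of 48898 genes, and no measured value entered the choice. OAS1, OAS2 and OAS3 bind double-stranded RNA and then join ATP into short 2′-5′-linked oligoadenylates (2-5A), the second messenger that activates the ribonuclease RNase L, which cleaves cellular and viral RNA. OASL is built from the same fold but makes no 2-5A, and is known for strengthening signalling by the RNA sensor RIG-I. All of them are classical interferon-stimulated genes, transcribed when factors activated by interferon, STAT2 and IRF9 among them, bind interferon-stimulated response elements in their promoters.

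Poly(A) RNA was sequenced from 48 libraries of 2 established human lines in 16 groups of 3. One is IMR-90, fibroblasts from fetal lung, and the other SK-MEL-103, derived from a melanoma. Doxorubicin, which damages DNA through topoisomerase II, was given at 200 nM for 48 h. In the siRNA experiment of each line, cells were transfected the day before doxorubicin with a negative control siRNA (cNeg), siMFN1, siMFN2, both of these (siMFN1+2) or siMAVS, RNA was taken on day 7, and proliferating cells with cNeg formed a further group. MFN1 and MFN2 are the mitofusins, which fuse the outer membranes of mitochondria, while MAVS sits in the same membrane and relays the signal of the RNA sensors RIG-I and MDA5 towards interferon production. In the compound experiment, IMR-90 cells received the solvent DMSO, MFI8 at 20 µM or BI at 10 µM for 48 h from day 7 of doxorubicin, RNA was taken on day 9, and proliferating cells in DMSO formed the remaining group. The labels give MFI8 as an inhibitor and BI as an activator of the mitofusins, and both are known here only by these code names. The labels do not say whether replicates are separate cultures, so p-values measure the spread between these libraries, which may be technical. In RNA from whole cultures, fewer cells with a transcript and less of it in each cell cannot be told apart.

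OAS1 (ENSG00000089127), OAS3 (ENSG00000111331) and OAS2 (ENSG00000111335) lie side by side on the plus strand of chromosome 12, at chr12:112906777-112933222, chr12:112938352-112973249 and chr12:112978395-113011723 of GRCh38, and OASL (ENSG00000135114) lies on the minus strand at chr12:121019111-121039242. Their merged exons in GENCODE 29 span 4947, 8251, 6264 and 3517 bases in that order. An antisense transcript, AC004551.1, shares 92 exonic bases with OAS1, which is 1.86% of the OAS1 exons, and has 30 counts in all 48 libraries together. Whether counting used the strand is not stated, nor is how reads shared between these related genes were treated. Of the members, only OAS1 and OAS3 had a sequence in the promoter set used here. The 250 bases before their start sites are shown from RefSeq on GRCh38.p14, with the copies of 2 motifs in capitals. The windows are OAS1 at chr12:112906712-112906961 and OAS3 at chr12:112938224-112938473, both on the plus strand. The RefSeq starts used for them lie downstream of the starts of the gene spans given above, so the windows reach into those spans. The motifs are GAAANNGAAA and GAAANGAAA, pairs of GAAA as in an interferon-stimulated response element, and both strands were searched.
OAS1: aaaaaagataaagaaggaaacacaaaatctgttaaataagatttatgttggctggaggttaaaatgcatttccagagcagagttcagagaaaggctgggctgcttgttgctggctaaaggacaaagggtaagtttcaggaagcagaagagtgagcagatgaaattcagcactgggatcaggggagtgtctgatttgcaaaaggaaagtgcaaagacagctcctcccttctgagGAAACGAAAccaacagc
OAS3: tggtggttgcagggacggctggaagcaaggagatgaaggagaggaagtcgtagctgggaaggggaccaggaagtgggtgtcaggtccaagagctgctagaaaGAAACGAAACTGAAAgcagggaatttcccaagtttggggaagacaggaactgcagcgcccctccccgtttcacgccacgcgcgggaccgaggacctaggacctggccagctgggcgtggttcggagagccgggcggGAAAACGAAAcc
The OAS1 window holds 1 copy of GAAANGAAA, from 17 to 9 bases before the start. The OAS3 window holds GAAANNGAAA at 143 to 134 and at 12 to 3 bases before the start, and a GAAANGAAA at 148 to 140 that overlaps the first of these. GAAANNGAAA occurs in 3.02% and GAAANGAAA in 2.69% of the 35116 RefSeq promoters in windows of the same length, either one in 5.48% and both in 0.231%. These matches describe the letters of the windows and were not tested as binding sites. Promoter sequence of OAS2 and OASL was not used here.

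Libraries held 15206115 to 79204217 counts, and depth followed the library number within each group: number 1 libraries were the deepest and number 3 libraries the shallowest. The siRNAs lowered their targets. MFN1 was at 7.11 to 8.21 CPM (counts scaled to a common library size after TMM normalisation, the trimmed mean of M values) with siMFN1 in IMR-90 and 13.3 to 19.8 CPM in SK-MEL-103, against 38.5 to 64.5 and 50.1 to 55.4 CPM with cNeg. MFN2 with siMFN2 was at 16.8 to 20.1 and 19.1 to 20.6 CPM, against 156.9 to 178.0 and 89.5 to 101.8 CPM. MAVS with siMAVS was at 39.6 to 52.6 and 49.5 to 83.8 CPM, against 108.7 to 148.6 and 162.3 to 175.9 CPM. The proliferation gene MKI67 was at 204.6 to 569.5 CPM in proliferating libraries and at most 107.2 CPM in doxorubicin libraries. SK-MEL-103 libraries expressed the melanocyte lineage factor SOX10 at 386 to 673 CPM, but the pigment genes MLANA, PMEL, TYR and DCT, which define melanocytes, stayed at or below 2.86 CPM there. Summed leukocyte markers (4 genes) reached at most 2.31 CPM in any library. The fibroblast markers of the IMR-90 proliferating cNeg library number 2 summed to 20040 CPM, against 6527 and 6085 CPM in numbers 1 and 3, and the same library has the lowest OAS1, OAS2, OAS3 and OASL of its group.

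Levels of the 4 genes spanned a wide range. OAS1 ranged from 0 to 13.2 CPM over the 48 libraries with a median of 1.49, OAS2 from 0.112 to 52.2 with a median of 2.88, OAS3 from 3.07 to 77.5 with a median of 11.1, and OASL from 0.0597 to 2.81 with a median of 0.531. OAS3, the longest member, was therefore the most abundant by counts, and OASL the scarcest, with 1 to 185 counts per library. The order of the groups differed between members. OAS1 and OAS2 had their highest means in the doxorubicin groups of the compound experiment, OAS1 at 7.05 ± 4.22 CPM (SD, n = 3) with BI and OAS2 at 31.0 ± 22.2 CPM (SD, n = 3). OASL was also highest with BI, at 1.92 ± 1.09 CPM (SD, n = 3), followed by SK-MEL-103 in doxorubicin with cNeg at 1.56 ± 0.168 CPM (SD, n = 3). OAS3 stood in another order, with proliferating IMR-90 at the top, at 69.1 ± 13 CPM with cNeg and 59.1 ± 15.5 CPM in DMSO (SD, n = 3 each). The lowest means of OAS1 and OASL were in IMR-90 with siMFN1+2, at 0.0917 ± 0.0809 CPM and 0.156 ± 0.085 CPM (SD, n = 3 each). OAS2 was lowest in proliferating SK-MEL-103, at 0.263 ± 0.195 CPM (SD, n = 3), and OAS3 in SK-MEL-103 with siMFN1+2, at 3.29 ± 0.247 CPM (SD, n = 3). Of the 15 pairs of neighbours in each order, all 15 had overlapping libraries for OAS1, OAS2 and OASL, and 14 for OAS3, where IMR-90 with siMFN1 lay above IMR-90 with siMFN2 without overlap.

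**Figure D1:**
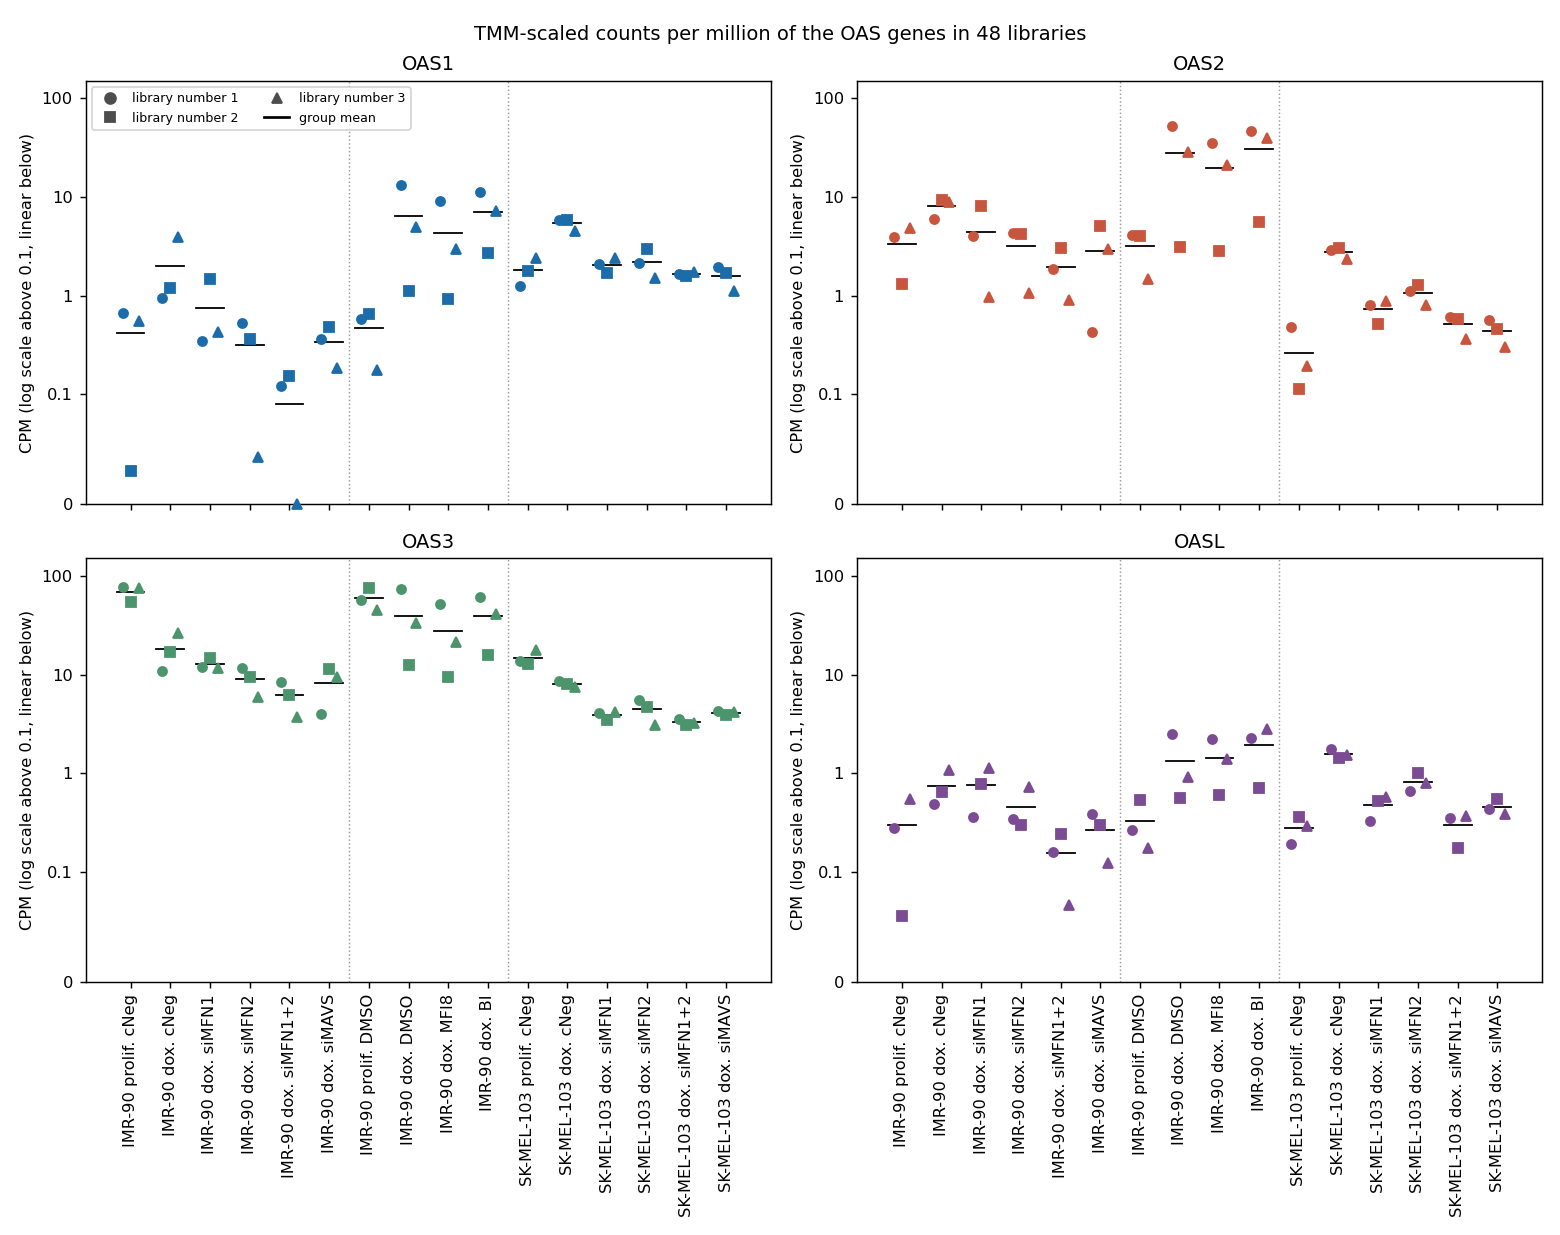
CPM of OAS1, OAS2, OAS3 and OASL in every library of the 16 groups, on a scale that is logarithmic above 0.1 CPM and linear below it; symbols give the library number, lines the group means, and dotted lines separate the 3 experiments. OAS3 is highest in the proliferating IMR-90 groups, while the doxorubicin groups of the compound experiment spread from 3.10 to 52.2 CPM for OAS2 in DMSO.

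Doxorubicin raised OAS1, OAS2 and OASL in SK-MEL-103 and lowered OAS3. OAS2, the mid-sized synthetase, was at 0.483, 0.112 and 0.192 CPM in proliferating libraries 1, 2 and 3 and at 2.93, 3.08 and 2.36 CPM after doxorubicin (log2 fold change 3.27, SE 0.38, adjusted p = 1.5e-06 by edgeR's quasi-likelihood test with Benjamini-Hochberg adjustment over all genes, as for every adjusted p here). OASL went from 0.19, 0.36 and 0.289 CPM to 1.75, 1.42 and 1.52 CPM (log2 fold change 2.48, SE 0.33, adjusted p = 5.7e-06). OAS1 went from 1.26, 1.8 and 2.41 CPM to 5.85, 5.93 and 4.56 CPM (log2 fold change 1.59, SE 0.27, adjusted p = 6.9e-05). For these 3 genes each doxorubicin library lay above each proliferating one, as for 32.6% of all genes tested, and the fitted rises were 9.67-fold, 5.59-fold and 3.01-fold. OAS3, the largest synthetase, was at 13.7, 12.7 and 17.6 CPM in proliferating and 8.69, 7.95 and 7.48 CPM in doxorubicin libraries (log2 fold change -0.89, SE 0.18, adjusted p = 0.00034). Its doxorubicin libraries all lay below the proliferating ones, as for 30% of genes, a 1.85-fold fall. All 4 members thus passed the threshold of an adjusted p below 0.05, in a comparison where 59.3% of the 17945 genes tested did so, and the call held for all 4 when any of the 6 libraries was left out.

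In the siRNA experiment of IMR-90, the fall of OAS3 was the only one of the 4 differences past the threshold, against 49.6% of 19077 genes. OAS3 was at 77.5, 54.2 and 75.6 CPM in proliferating libraries and at 10.9, 16.8 and 26.4 CPM after doxorubicin (log2 fold change -1.97, SE 0.40, adjusted p = 0.001). Its doxorubicin libraries all lay below the proliferating ones, as for 25.2% of genes. OAS1 was at 0.675, 0.0298 and 0.554 CPM and then 0.957, 1.2 and 3.9 CPM (log2 fold change 2.19, SE 0.90, adjusted p = 0.055). OAS2 was at 3.95, 1.31 and 4.83 CPM and then 6.04, 9.44 and 8.89 CPM (log2 fold change 1.24, SE 0.82, adjusted p = 0.22). For OAS1 and OAS2 every doxorubicin library lay above every proliferating one, as for 29.8% of genes, but the spread within the groups was wide. OASL was at 0.281, 0.0597 and 0.554 CPM and then 0.486, 0.639 and 1.09 CPM (log2 fold change 1.28, SE 0.66, adjusted p = 0.12), with overlap. Leaving out doxorubicin library 1 or proliferating library 3 brought 2 of the 4 past the threshold. Without proliferating library 2, whose fibroblast markers and OAS values stand apart, OAS3 fell by 2.14 on the log2 scale (adjusted p = 0.0013) and the OAS1 log2 fold change was 1.64 (adjusted p = 0.13).

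The compound experiment compared doxorubicin with proliferation in IMR-90 on day 9 in DMSO, and here 3 of the 4 members passed the threshold, OAS1, OAS2 and OASL, each of them higher, with 54.4% of 19056 genes called. OAS1 was at 0.587, 0.653 and 0.175 CPM in proliferating libraries and 13.2, 1.11 and 4.96 CPM after doxorubicin (log2 fold change 3.64, SE 1.06, adjusted p = 0.014). OAS2 was at 4.1, 4.03 and 1.49 CPM and 52.2, 3.1 and 28.7 CPM (log2 fold change 3.05, SE 1.14, adjusted p = 0.043). OASL was at 0.269, 0.54 and 0.175 CPM and 2.48, 0.565 and 0.907 CPM (log2 fold change 1.93, SE 0.75, adjusted p = 0.04955). The size of the rise depended on the library. For OAS1 and OAS2, numbers 1 and 3 were far above the proliferating libraries, and for OASL only number 1 was. OASL in number 3, at 0.907 CPM, was nearer to the highest proliferating library, at 0.54 CPM. In number 2, OAS2 lay below 2 of the 3 proliferating libraries, OAS1 was at 1.11 against at most 0.653 CPM, and OASL lay just above them. OAS3 was at 56.6, 75.6 and 45.0 CPM and 72.8, 12.5 and 33.1 CPM (log2 fold change -0.66, SE 0.72, adjusted p = 0.46), with doxorubicin library 1 above and libraries 2 and 3 below the median proliferating library. The summed CPM of 36 other interferon-stimulated effectors followed the same order of libraries in this group, at 2675, 1602 and 1950 in numbers 1, 2 and 3, against 940.5 to 1258 in proliferating libraries, and what sets that order was not tested. Without doxorubicin library 1 or proliferating library 3 none of the members passed, and without doxorubicin library 3 or proliferating library 1 only 1 did. Same-numbered libraries of these groups deviated together only weakly (r from 0.139 to 0.301). With the library number as a block and only the 2 groups compared 1 member, OAS1, passed (log2 fold change 3.30, SE 0.93, adjusted p = 0.032), while OAS2 and OASL did not (adjusted p = 0.09 and 0.085). The share of all genes called in that fit is not given here.

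Whether the doxorubicin effect differed between the lines was tested in 1 fit over both siRNA experiments, in which 22.4% of 20892 genes were called and none of the members. For OAS3 the log2 fold change in the melanoma line minus that in the fibroblasts was 1.18 (SE 0.44, adjusted p = 0.055, unadjusted p = 0.013), which missed the threshold. The differences for OAS2, OASL and OAS1 were 2.16, 1.28 and -0.50 (adjusted p = 0.11, 0.23 and 0.75). Leaving out IMR-90 doxorubicin library 3, IMR-90 proliferating library 2, or SK-MEL-103 proliferating library 1 or 3 each brought 1 member past the threshold, OAS2 without SK-MEL-103 proliferating library 1 (adjusted p = 0.048) and OAS3 in the other cases (adjusted p from 0.012 to 0.04993).

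The makeup of the family differed between proliferating and doxorubicin libraries. Levels of different genes were compared as CPM per kilobase of merged exons. These join all annotated transcripts, 11 of OAS1, 7 each of OAS2 and OAS3 and 4 of OASL. They can be longer than the transcript expressed, and the shares depend on this choice of length. In proliferating IMR-90 with cNeg OAS3 was at 8.38 ± 1.57 CPM per kb, OAS2 at 0.537 ± 0.292, OAS1 at 0.0848 ± 0.0693 and OASL at 0.0848 ± 0.0704 (SD, n = 3 each), so OAS3 gave 92.7 ± 3.49% of the family's sum. After doxorubicin with cNeg its share was 52.6 ± 2.92% and that of OAS2 was 33.2 ± 7.28%, up from 5.60 ± 2.29% (SD, n = 3 each). In DMSO the OAS3 share was 91.4 ± 2.76% in proliferating and 49.0 ± 12.4% in doxorubicin libraries. In SK-MEL-103 the OAS3 share was 78.4 ± 2.60% in proliferating and 32.9 ± 1.43% in doxorubicin libraries, where OAS1 held 37.0 ± 2.11%, OAS2 15 ± 0.967% and OASL 15 ± 1.64% (SD, n = 3 each). The IMR-90 doxorubicin libraries with cNeg had only 9.10 ± 4.12% OAS1. These shares are descriptions of each group and have no test of their own. The summed level itself went from 9.08 ± 1.98 to 4.10 ± 1.55 CPM per kb with doxorubicin and cNeg in IMR-90 and from 2.26 ± 0.401 to 2.97 ± 0.293 in SK-MEL-103 (SD, n = 3 each). In DMSO-treated IMR-90 the mean went the other way from that with cNeg, from 7.86 ± 2.17 to 10.9 ± 9.11 (SD, n = 3 each), with a wide spread after doxorubicin.

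**Figure D2:**
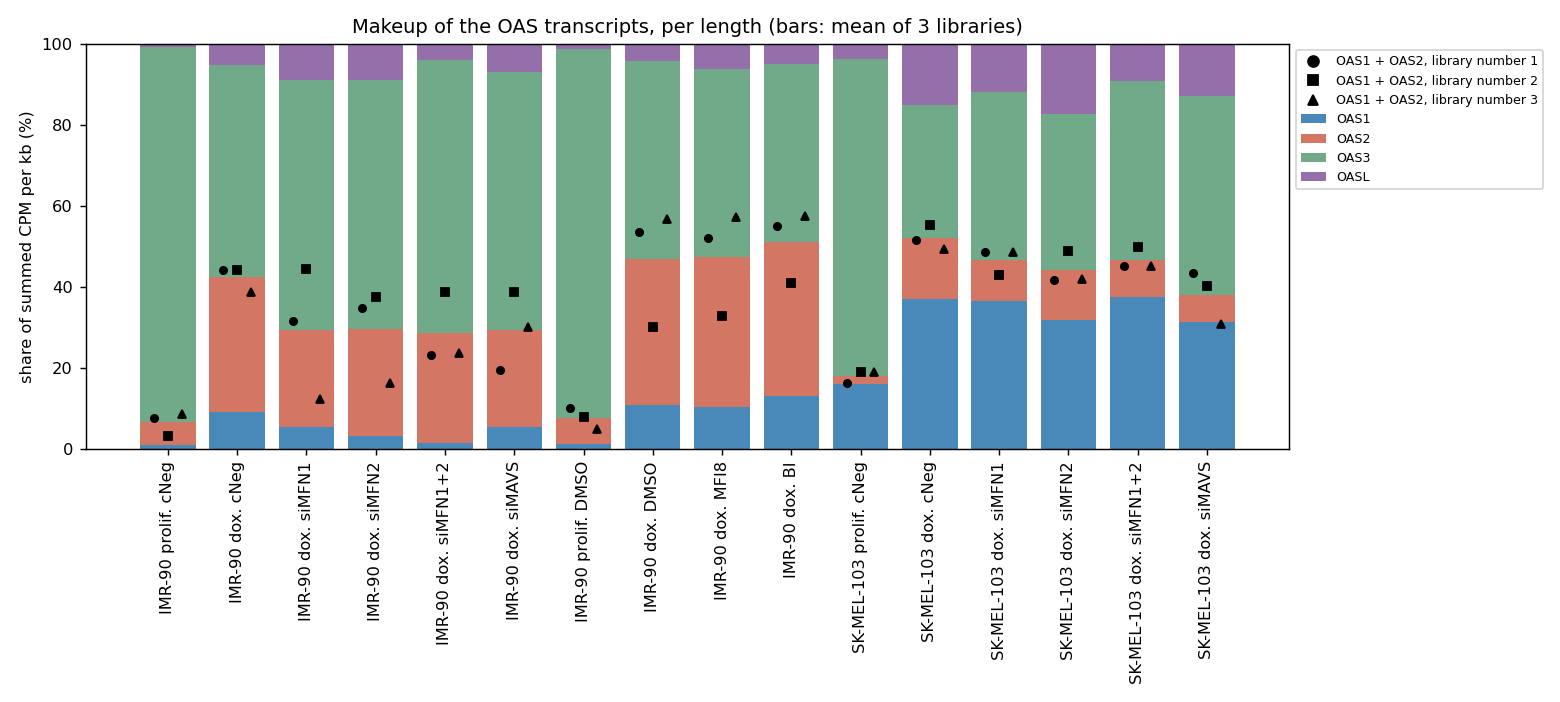
Share of each OAS gene in the family's summed CPM per kb of exon in the 16 groups; bars are means of 3 libraries and black symbols give OAS1 plus OAS2 in each library. OAS3 fills over 90% in both proliferating IMR-90 groups and 32.9% in SK-MEL-103 after doxorubicin with cNeg.

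In SK-MEL-103 all 4 siRNA treatments were followed by lower levels of the whole family: in 16 of 16 combinations of member and siRNA each of the 3 libraries lay below each of the 3 doxorubicin libraries with cNeg, and 10 of the 16 passed the threshold. The 4 comparisons share these cNeg libraries, so the 16 are not independent. Of all 17945 genes tested, the share whose 3 siRNA libraries lay below all 3 cNeg libraries was 8.2% with siMFN1, 6.02% with siMFN2, 6.49% with siMFN1+2 and 5.42% with siMAVS. The largest set of calls was with siMFN1+2, where all 4 members passed among only 0.173% of genes called (31 of 17945). OAS1 was at 1.67, 1.6 and 1.73 CPM with siMFN1+2, against 5.85, 5.93 and 4.56 CPM with cNeg (log2 fold change -1.71, SE 0.27, adjusted p = 0.0055). OAS2 was at 0.602, 0.584 and 0.366 CPM, against 2.93, 3.08 and 2.36 CPM (log2 fold change -2.37, SE 0.35, adjusted p = 0.0037). OASL was at 0.348, 0.173 and 0.366 CPM, against 1.75, 1.42 and 1.52 CPM (log2 fold change -2.42, SE 0.32, adjusted p = 0.0012). The levels of OAS1 and OASL with siMFN1+2 were within or next to the range of proliferating SK-MEL-103 libraries, while OAS2 stayed above 2 of its 3 proliferating libraries. OAS3 was at 3.56, 3.07 and 3.24 CPM, against 8.69, 7.95 and 7.48 CPM (log2 fold change -1.28, SE 0.18, adjusted p = 0.0024), a further 2.43-fold fall below a level that doxorubicin had already lowered. With any 1 of the 6 libraries left out, 3 or 4 members still passed.

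With siMAVS, OAS1, OAS2 and OASL passed, in a comparison with 0.0836% of genes called (15 of 17945). OAS1 was at 1.97, 1.7 and 1.12 CPM (log2 fold change -1.74, SE 0.27, adjusted p = 0.0081). OAS2 was at 0.566, 0.456 and 0.301 CPM (log2 fold change -2.60, SE 0.36, adjusted p = 0.0041), a 6.05-fold fall. OASL was at 0.438, 0.547 and 0.387 CPM (log2 fold change -1.77, SE 0.31, adjusted p = 0.031). OAS3, at 4.24, 3.86 and 4.17 CPM, was lower in all 3 libraries as well and just missed the threshold (log2 fold change -0.97, SE 0.18, adjusted p = 0.058). This count moved with the fit and the libraries, and the shares of all genes called in the other fits are not given here. With the library number as a block over all groups all 4 passed (OAS3 adjusted p = 0.038), whereas with the block and only the 2 groups compared none did, at nearly the same fold changes (OAS1 -1.77, adjusted p = 0.064, and OAS2 -2.63, adjusted p = 0.064). Leaving out cNeg library 1 or 2 or siMAVS library 2 or 3 left 1 call, and leaving out either of the other libraries left 2. Directly compared, siMFN1+2 and siMAVS did not differ past the threshold for any member (0.1% of genes called): the log2 differences were 0.03 (SE 0.27) for OAS1, 0.23 (SE 0.39) for OAS2, -0.31 (SE 0.19) for OAS3 and -0.66 (SE 0.35) for OASL, with adjusted p from 0.81 to 0.99. For OAS3 and OASL all siMFN1+2 libraries lay below all siMAVS libraries, as for 5.38% of genes.

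With 1 mitofusin silenced at a time, log2 fold changes lay between -1.92 and -0.85. With siMFN1, OAS2 was at 0.816, 0.523 and 0.88 CPM (log2 fold change -1.92, SE 0.34, adjusted p = 0.041), OASL at 0.329, 0.523 and 0.574 CPM (log2 fold change -1.76, SE 0.31, adjusted p = 0.035) and OAS3 at 4.06, 3.43 and 4.13 CPM (log2 fold change -1.05, SE 0.18, adjusted p = 0.033). These 3 passed among 0.0892% of genes called (16 of 17945). OAS1, at 2.09, 1.69 and 2.41 CPM, lay below all cNeg libraries and missed the threshold narrowly (log2 fold change -1.41, SE 0.26, adjusted p = 0.052). It passed with the library number as a block (over all groups adjusted p = 0.034, in the 2 groups alone 1.2e-05), but none of the 4 passed when any 1 of the 6 libraries was left out, whichever it was. With siMFN2 no member passed by edgeR among the 0.0167% of genes called (3 of 17945, and 509 with an unadjusted p below 0.05). OAS1 was at 2.15, 2.98 and 1.5 CPM (log2 fold change -1.30, SE 0.26, adjusted p = 0.19). OAS2 was at 1.13, 1.3 and 0.804 CPM (log2 fold change -1.37, SE 0.33, adjusted p = 0.51). OAS3 was at 5.56, 4.69 and 3.07 CPM and OASL at 0.658, 0.994 and 0.804 CPM (log2 fold changes -0.85 and -0.96, adjusted p = 0.25 and 1). All 12 of these values lie under the lowest cNeg library of their gene. The call depended on the fit. With the library number as a block over all groups none of the 4 passed. With that block in the 2 groups alone all 4 did, at adjusted p = 6.3e-06 for OAS1, 2.5e-05 for OAS2, 0.00012 for OAS3 and 0.0077 for OASL. DESeq2 without a block called OAS1, OAS2 and OAS3. For the block and DESeq2 fits of this paragraph the share of all genes called is not given here. The shares above are from edgeR without a block.

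In IMR-90, 15 of the 16 combinations of member and siRNA had a negative log2 fold change, in 9 of 16 all libraries lay below all cNeg libraries, and none passed the threshold. These 4 comparisons, too, share 1 set of cNeg libraries. By the running numbers in the labels, libraries 1 and 2 of this experiment are 19 to 30. Library 3 is 89 to 93 in every group but siMAVS, where it is 35. So siMAVS and cNeg differ in the range of library 3, and what the ranges mark is not stated. All 3 libraries lay below cNeg for 8.38% of the 19077 genes tested with siMFN1, 7.8% with siMFN2, 10% with siMFN1+2 and 7.33% with siMAVS. Of the 4 siRNAs, siMFN1+2 had the lowest mean of every member. OAS1 was at 0.122, 0.153 and 0 CPM there, against 0.957, 1.2 and 3.9 CPM with cNeg (log2 fold change -4.16, SE 1.04, adjusted p = 0.071), and these libraries held only 0 to 7 OAS1 counts. The library without an OAS1 count has a limit of 0.21 CPM, the level of 3 counts, which covers counting error only. OAS3 was at 8.46, 6.24 and 3.71 CPM, against 10.9, 16.8 and 26.4 CPM (log2 fold change -1.55, SE 0.40, adjusted p = 0.082). OASL was at 0.157, 0.24 and 0.07 CPM, against 0.486, 0.639 and 1.09 CPM (log2 fold change -2.09, SE 0.70, adjusted p = 0.17). For these genes and for OAS2, at 1.87, 3.08 and 0.911 CPM against 6.04, 9.44 and 8.89 CPM (log2 fold change -2.04, SE 0.84, adjusted p = 0.27), all siMFN1+2 libraries lay below all cNeg libraries, with 1.01% of genes called (193 of 19077). The same-numbered libraries of these groups deviated together, and with the library number as a block in the 2 groups alone all 4 members passed: OAS1 (log2 fold change -3.58, SE 0.52, adjusted p = 0.0024), OAS2 (log2 fold change -1.99, SE 0.26, adjusted p = 0.0016), OAS3 (log2 fold change -1.41, SE 0.33, adjusted p = 0.02) and OASL (log2 fold change -1.87, SE 0.45, adjusted p = 0.022). With the block over all groups none did. The 1.01% of genes called is from the fit without a block, and the share with the block is not given here. Library 3 of siMFN1+2 had the lowest value of all 4 members in its group, and its summed fibroblast markers were 48250 CPM, against 32730 and 24310 CPM in libraries 1 and 2. In the cNeg group library 3 also had the highest sum, 38190 CPM against 24280 and 24580 CPM, but there it had the highest OAS1, OAS3 and OASL. The part of these markers in the OAS values was not tested.

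The other siRNAs gave higher means in IMR-90. With siMAVS (0.204% of genes called, 39 of 19077, and 2464 with an unadjusted p below 0.05), OAS1 was at 0.362, 0.483 and 0.185 CPM and OASL at 0.384, 0.295 and 0.123 CPM, both below all cNeg libraries (log2 fold changes -2.55 and -1.44, adjusted p = 0.24 and 0.37). OAS2, at 0.43, 5.13 and 2.99 CPM, and OAS3, at 3.98, 11.3 and 9.55 CPM, were lowest in library 1, and OAS2 but not OAS3 lay below all cNeg libraries (log2 fold changes -1.52 and -1.14, adjusted p = 0.46 and 0.23). That library also had summed fibroblast markers of 42010 CPM, against 10710 and 8881 CPM in the other siMAVS libraries. Its OASL, at 0.384 CPM, was the highest of the group, and its OAS1 was not the lowest. The part of the markers in the OAS values was not tested. With siMFN2 (0.0839% called, 16 of 19077, and 2212 with an unadjusted p below 0.05), OAS1 was at 0.535, 0.364 and 0.0426 CPM and OAS2 at 4.33, 4.18 and 1.06 CPM, all below cNeg (log2 fold change -2.61, SE 0.91, adjusted p = 0.29, and log2 fold change -1.37, SE 0.82, adjusted p = 0.56). OAS3 was at 11.6, 9.54 and 5.96 CPM and OASL at 0.342, 0.295 and 0.724 CPM, overlapping cNeg (adjusted p = 0.34 and 0.72). With the block in the 2 groups alone, OAS2 passed with siMFN2 (log2 fold change -1.38, SE 0.35, adjusted p = 0.036), and the share of all genes called in that fit is not given here. Library 3 had the lowest OAS1, OAS2 and OAS3 of this group but the highest OASL, at 0.724 CPM. Its fibroblast markers summed to 43260 CPM, against 28630 and 19330 CPM in libraries 1 and 2. With siMFN1 (1.08% called, 206 of 19077) every member overlapped cNeg. OAS1 was at 0.349, 1.48 and 0.427 CPM, OAS2 at 4.01, 8.2 and 0.962 CPM, OAS3 at 11.9, 14.8 and 11.7 CPM and OASL at 0.363, 0.785 and 1.12 CPM, with adjusted p from 0.5 to 1, and the OASL log2 fold change was 0.01 (SE 0.64). In library 3 OAS2 was the lowest of the group, OAS3 was nearly level with library 1 (11.7 against 11.9 CPM) and OASL was the highest, at 1.12 CPM. Its fibroblast markers summed to 49970 CPM, against 27500 and 16200 CPM. As with the other siRNAs, the part of this in the OAS values was not tested. No member differed past the threshold between siMFN1+2 and siMAVS (0.152% of genes called), where the OAS1 difference was -1.61 on the log2 scale (SE 1.04, adjusted p = 0.93).

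**Figure D3:**
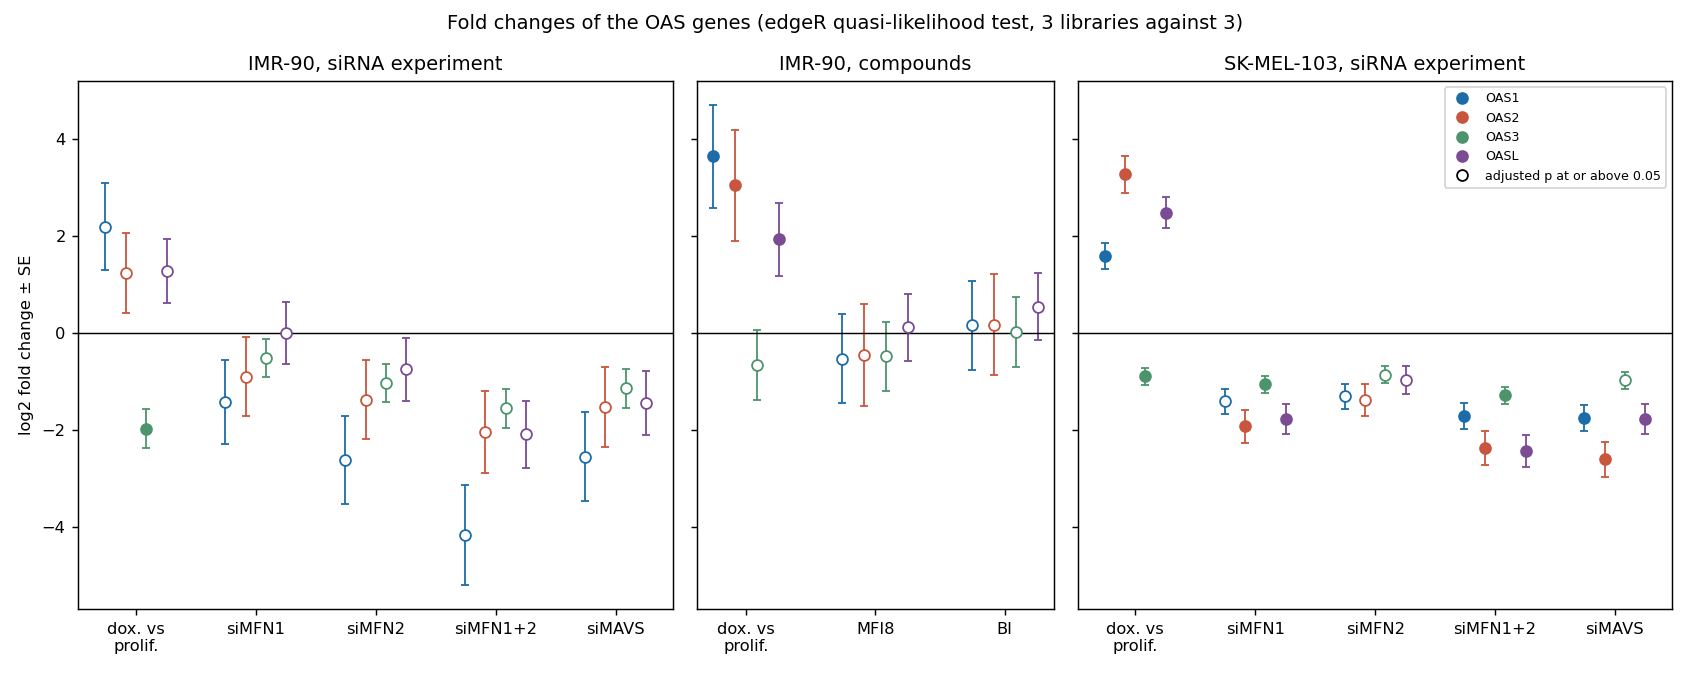
Log2 fold changes of the 4 OAS genes with their standard errors; filled points have an adjusted p below 0.05, open points do not. The siRNA panels compare with the control siRNA in doxorubicin. In SK-MEL-103 all 16 siRNA points lie below 0 with errors of 0.18 to 0.36, and in IMR-90 the errors reach 1.04.

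The absence of calls in IMR-90 and their presence in SK-MEL-103, by edgeR without a block, is not a shown difference between the lines. With the block in the 2 groups alone, members passed with siMFN1+2 and siMFN2 in IMR-90 too. Tested as the difference of the siRNA effects, 0 of 16 combinations passed by edgeR without a block (2 of 16 had an unadjusted p below 0.05, and adjusted p ran from 0.44 to 1). The 2 were OASL with siMFN1, lower in SK-MEL-103 by a log2 difference of -1.74 (SE 0.69, adjusted p = 0.44), and OAS1 with siMFN1+2, at 2.39 (SE 0.97, adjusted p = 0.48), where the fall was larger in IMR-90. Of all genes, 0.0239% to 0.129% were called in these 4 tests. The standard errors of the OAS1 and OAS2 fold changes were 0.81 to 1.04 in IMR-90 and 0.26 to 0.36 in SK-MEL-103.

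In doxorubicin-treated IMR-90 neither compound changed a member past the threshold, and no gene of 19056 was called by edgeR in either comparison, 0% (303 genes with MFI8 and 127 with BI had an unadjusted p below 0.05). With MFI8, OAS1 was at 9.12, 0.92 and 2.99 CPM, against 13.2, 1.11 and 4.96 CPM in DMSO libraries 1, 2 and 3 (log2 fold change -0.52, SE 0.92, adjusted p = 1). OAS2 was at 35.7, 2.84 and 21.3 CPM, against 52.2, 3.1 and 28.7 CPM (log2 fold change -0.45, SE 1.05, adjusted p = 1). OAS3 was at 51.9, 9.43 and 21.4 CPM, against 72.8, 12.5 and 33.1 CPM (log2 fold change -0.48, SE 0.72, adjusted p = 1). The groups overlapped widely, but each MFI8 library lay below the DMSO library of its own number for these 3 genes. The ratios to the same-numbered DMSO library were 0.691, 0.832 and 0.602 for OAS1, 0.685, 0.916 and 0.740 for OAS2 and 0.713, 0.755 and 0.646 for OAS3. OASL, at 2.23, 0.597 and 1.41 CPM against 2.48, 0.565 and 0.907 CPM, had ratios of 0.897, 1.06 and 1.55 (log2 fold change 0.12, adjusted p = 1). Same-numbered libraries deviated together across all genes in this experiment, with r from 0.86 to 0.936 between MFI8 and DMSO. With the library number as a block in these 2 groups OAS3 (log2 fold change -0.48, SE 0.06, adjusted p = 0.0073) and OAS2 (log2 fold change -0.41, SE 0.07, adjusted p = 0.022) passed, and OAS1 did not (log2 fold change -0.50, SE 0.12, adjusted p = 0.061). With the block over all 4 groups of the experiment none passed. The share of all genes called with the block is not given here, and the 0% above is without it.

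BI gave no common direction. OAS1 was at 11.1, 2.72 and 7.28 CPM with BI (log2 fold change 0.16, SE 0.91, adjusted p = 1). OAS2 was at 47.1, 5.65 and 40.2 CPM (log2 fold change 0.17, SE 1.04, adjusted p = 1). OAS3 was at 61.0, 15.7 and 41.5 CPM and OASL at 2.25, 0.706 and 2.81 CPM (log2 fold changes 0.03 and 0.54, adjusted p = 1 for both). For all 4 genes library 1 lay below and libraries 2 and 3 above their DMSO partners, with OAS1 ratios of 0.845, 2.46 and 1.47. The block brought no member past the threshold with BI. MFI8 and BI were given at different doses and were not compared with each other.

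**Figure D4:**
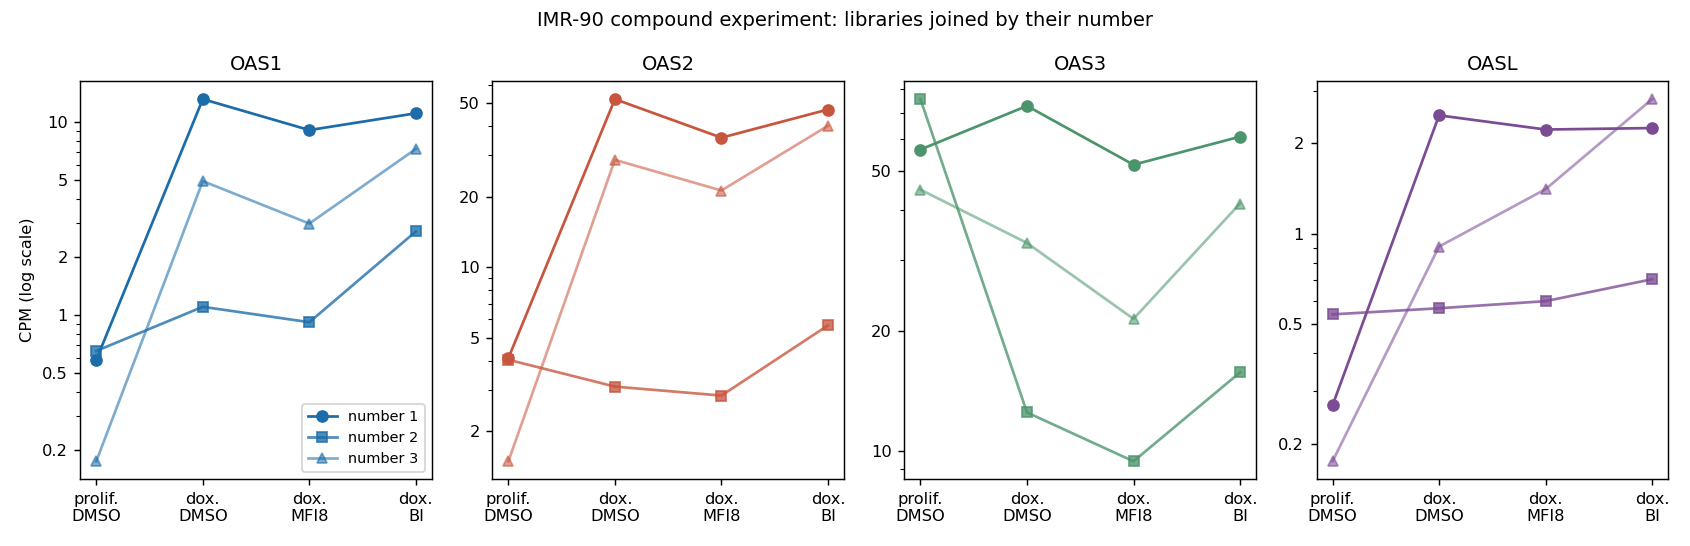
CPM of the 4 OAS genes in the IMR-90 compound experiment on logarithmic axes, with libraries of the same number joined. The numbers keep their order through the doxorubicin groups for OAS1, OAS2 and OAS3, and each number falls from DMSO to MFI8 for those 3 genes.

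Among the partners of the synthetases in the 2-5A pathway, 4 of which were tested, 3 fell and none rose with doxorubicin in each IMR-90 experiment, and 2 fell and 1 rose in SK-MEL-103. Over all genes tested, 23.6% fell in IMR-90 with cNeg, 26.2% in DMSO and 29.9% in SK-MEL-103, within the 49.6%, 54.4% and 59.3% called in either direction, and with 4 genes little can be read from the count. ABCE1, a ribosome recycling factor also known as the RNase L inhibitor, fell in all 3 comparisons (log2 fold changes -1.34 in IMR-90 with cNeg, -1.55 in DMSO and -1.34 in SK-MEL-103, adjusted p = 4.8e-05, 1.2e-06 and 8.6e-08). PDE12, a phosphodiesterase that degrades 2-5A, fell too (-0.72, -0.67 and -0.57, adjusted p = 0.00059, 0.00028 and 0.00038). AKAP7, whose domain can also cleave 2-5A, fell in IMR-90 with cNeg (log2 fold change -1.57, adjusted p = 5.1e-05) and in DMSO (log2 fold change -1.44, adjusted p = 9.3e-05). None of the partners passed with any siRNA or compound.

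Of the interferon receptor and signalling genes, which act upstream of the family, 3 of 12 rose with doxorubicin in IMR-90 with cNeg, 7 of 12 in DMSO and 6 of 11 tested in SK-MEL-103, and none fell. The shares of all genes that rose were 25.9%, 28.3% and 29.4% in that order, and 49.6%, 54.4% and 59.3% were called in either direction. By the latter the list's counts are below the background in IMR-90 with cNeg and near it in the other comparisons. Their median log2 fold changes were 0.385, 0.729 and 0.332, against 0.088, 0.11 and 0.029 over all genes. STAT2 rose in each (1.07, 1.63 and 1.52, adjusted p = 0.0012, 7.9e-06 and 2.1e-08), and IRF9, its partner in binding the response element, rose in DMSO (log2 fold change 2.10, adjusted p = 0.0015) and in SK-MEL-103 (log2 fold change 1.88, adjusted p = 0.00026). In SK-MEL-103, 2 of the 11 fell with each of siMFN1, siMFN1+2 and siMAVS, and none rose. Of all genes, 0.0836%, 0.162% and 0.0836% fell in that order. USP18, which restrains interferon receptor signalling, fell with all 3 (log2 fold changes -1.58, -1.89 and -1.45, adjusted p = 0.0064, 0.00065 and 0.0084). None of this list passed with an siRNA in IMR-90. Of 7 tested sensors of double-stranded RNA and their regulators, 2 rose and 3 fell in IMR-90 with cNeg, 2 rose in DMSO, and 5 rose and 1 fell in SK-MEL-103, to be read against the same shares. RIGI rose in each (1.05, 1.36 and 1.05, adjusted p = 0.00071, 0.00058 and 1.8e-06). EIF2AK2, the kinase PKR, which like the OAS proteins is switched on by double-stranded RNA, fell in IMR-90 with cNeg (log2 fold change -0.70, adjusted p = 0.00014) and in SK-MEL-103 (log2 fold change -0.45, adjusted p = 0.0039). With siMAVS, 1 of these 7, the silenced MAVS itself, fell in each line, where 0.131% of all genes in IMR-90 and 0.0836% in SK-MEL-103 fell.

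Most of the other interferon-stimulated effectors rose with doxorubicin in SK-MEL-103 and in DMSO. In SK-MEL-103, 23 of 32 tested rose and 2 fell with doxorubicin (median log2 fold change 1.083), in DMSO-treated IMR-90 22 of 36 rose and none fell (median 1.077), and in IMR-90 with cNeg 11 rose and 3 fell (median 0.362), against the shares of all genes given above for the signalling list and the median log2 fold changes over all genes beside them. IFI27 rose in DMSO (log2 fold change 5.34, adjusted p = 0.004), and RSAD2, the antiviral enzyme viperin, had a mean of 2.50 CPM there against 0.0056 CPM in proliferating cells (adjusted p = 0.0012). In SK-MEL-103, 6 of 32 fell with siMFN1, 1 with siMFN2, 8 with siMFN1+2 and 6 with siMAVS, and none rose. Of all genes, 0.0836%, 0.0167%, 0.162% and 0.0836% fell in that order. The 1 with siMFN2 was IFI6 (log2 fold change -1.52, adjusted p = 0.00053), which also fell with siMFN1 (adjusted p = 2.4e-05), siMFN1+2 (log2 fold change -2.42, adjusted p = 9.2e-07) and siMAVS (log2 fold change -2.68, adjusted p = 4.4e-07). In IMR-90, 3 of 36 fell with siMFN1+2 (IFI6, IFI44 and DDX60), 2 with siMAVS (IFI6 and IFI44L), none with siMFN2 and none with siMFN1, where GBP1 rose. The shares of all genes that fell were 0.566%, 0.131%, 0.0419% and 0.676% in that order, and 0.404% rose with siMFN1. Transcripts of the interferons themselves were scarce: of 21 interferon genes listed, 19 have a row, and all but IFNE had at most 15 counts over the 48 libraries together. IFNE, the only one tested, rose with doxorubicin in IMR-90 with cNeg (log2 fold change 2.65, adjusted p = 0.00064) and in DMSO (log2 fold change 1.80, adjusted p = 0.017) and reached at most 1.55 CPM in a library of the siRNA groups. In SK-MEL-103 IFNE did not pass with doxorubicin (log2 fold change -0.415, means of 0.136 against 0.180 CPM). Its difference between the lines was called (-2.98), as for 22.4% of genes in either direction.

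Genes whose group means ran most like those of a member were found by Pearson correlation of log2 CPM over the 16 group means, among 13387 genes. This is a description, since the means share libraries, depth and the 2 lines. The 5 nearest to OAS1 included PARP9 (r = 0.892), IFIT3 (0.866), ZBTB21 (0.863) and IFIH1 (0.855). The 5 nearest to OAS2 included DDX60 (0.919), IFI27 (0.919), LRRK2 (0.913) and TRAPPC11 (0.909). For OASL they were IFI6 (0.911), IFIT1 (0.88), OAS1 (0.817), TRIM69 (0.799) and IFIT3 (0.798). For OAS3 they were PARP12 (0.946), KAZALD1 (0.941), EMC9 (0.937), GNB1L (0.93) and NCEH1 (0.918), none of them shared with another member. Between members, r was 0.817 for OAS1 and OASL, 0.631 for OAS2 and OAS3, 0.612 for OAS2 and OASL, 0.238 for OAS1 and OAS2, 0.157 for OAS3 and OASL and -0.00494 for OAS1 and OAS3. Over the 12 siRNA group means alone, IFI6 and IFIT1 again stood among the 5 nearest to OASL, and the 5 nearest to each of OAS1, OAS2 and OAS3 were other genes. There r was 0.724 for OAS1 and OASL, 0.479 for OAS2 and OAS3 and 0.304 for OAS2 and OASL. It was -0.28 for OAS1 and OAS2, -0.121 for OAS3 and OASL and -0.286 for OAS1 and OAS3.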

How the data were processed

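The authors deposited raw counts per Ensembl gene for 48 libraries, whole numbers that are not normalized. Per the submitters' processing notes, reads were trimmed with Trim Galore 0.6.7, aligned with STAR 2.7.10a to GRCh38 and counted with featureCounts, and the annotation release, the strand setting and the treatment of reads that map to several places are not given in the sources used here. RNA came from silica columns and libraries from a stranded poly(A) kit, per the labels' protocols, with no molecular identifiers.

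Groups came from the sample titles. An SK-MEL-103 siMFN2 library without a number was taken as number 1, the only one unused. No 2 libraries of a group were copies (smallest chi-square per degree of freedom 10 over 48 pairs). Symbols matched 48679 of 48898 identifiers, leaving 0.122% of counts without one. CPM were computed with TMM library sizes over all 48 libraries in edgeR 4.0.16 (R 4.3.3). Tests were edgeR quasi-likelihood F tests with filterByExpr and TMM, over all groups of 1 experiment, without a replicate block, with Benjamini-Hochberg adjustment over all genes tested and a threshold of 0.05, and were tested on simulated data. The SE is the log2 fold change divided by the square root of F. Differences between lines were contrasts in 1 fit of 36 libraries. The libraries held from 15206115 to 79204217 counts, and intervals or limits from counts cover counting error only.

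Same-numbered libraries were taken as paired where the deviations from their group means correlated above 0.1 for every number. This held in 11 of 15 comparisons (r from 0.139 to 0.957), and not for doxorubicin against proliferating cells in either siRNA experiment, nor for siMAVS against control or against siMFN1+2 in IMR-90 (r from -0.625 to 0.623).

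Alternatives were DESeq2 1.42.0, RLE size factors, no filter, the replicate block, the 2 groups alone, a term for the range of running numbers and leaving out each library. The members, the gene lists and the tests were chosen with earlier results of these data known. Named genes were the 4 members, the silenced and arrest genes, the 5 genes most correlated with each member (mean log2 CPM of 0 or more, prior count 2), and from each list up to 2 called in each direction beside its counts; DDX60 with siMFN1+2 in IMR-90 and further comparisons of IFI6 and PDE12 were added after their values were seen. The RNase L transcript and some other genes that the rule names are not reported here.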

Additional observations from a re-analysis of the deposited data

How the results depend on the processing

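The numbers of members called were recomputed for the 15 comparisons within experiments and the 5 between lines. The shares of all genes called with the alternatives are not given here. With DESeq2 they became 2 for doxorubicin in IMR-90 with cNeg, 2 for siMFN1+2 in IMR-90 and 3 for siMFN2 in SK-MEL-103, and without a filter on low counts they were 2, 2 and 3 as well, with 1 for the difference between lines in the doxorubicin effect. Fitting only the 2 groups compared left 1 for siMAVS in SK-MEL-103. RLE size factors, a robust quasi-likelihood fit chosen after seeing the data, and, in the IMR-90 siRNA experiment, a term for running numbers of 89 to 93 moved no count by over 1.5 times. The cause was not tested.

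The replicate block over all groups moved no count by over 1.5 times, and gave -0.0007 for OASL with siMFN1 in IMR-90, which is 0.01 without it. The replicate block in the 2 groups alone gave 4 calls for siMFN1+2 and 1 for siMFN2 in IMR-90, 4 for siMFN2 and 0 for siMAVS in SK-MEL-103, 1 for doxorubicin in DMSO and 2 for MFI8, and -0.0402 for OASL with siMFN1 in IMR-90.

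Leaving out 1 library gave 0 calls in every case for siMFN1 in SK-MEL-103, 1 to 2 for siMAVS in SK-MEL-103, 3 to 4 for siMFN1+2 in SK-MEL-103, 0 to 3 for doxorubicin in DMSO, 1 to 2 for doxorubicin in IMR-90 with cNeg and 0 to 1 for the difference between lines in the doxorubicin effect. Values near 0 changed sign when 1 library was left out. With MFI8 the log2 fold changes ran from -1.67 to 0.52 for OAS1, -1.15 to 0.30 for OAS2, -1.30 to 0.26 for OAS3 and -0.37 to 0.97 for OASL. With BI they ran from -0.35 to 1.20 for OAS1, -0.37 to 0.92 for OAS2 and -0.43 to 0.76 for OAS3. OASL with siMFN1 in IMR-90 ran from -0.39 to 0.40, OAS2 between siMFN1+2 and siMAVS in IMR-90 from -1.03 to 0.23, OAS1 between them in SK-MEL-103 from -0.13 to 0.21, and OAS1 in the difference between lines for doxorubicin from -1.11 to 0.41.

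The depth limits the lowest values: OAS1 had 3 or fewer counts in 3 libraries and OASL in 2.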
